A study of Drosophila melanogaster with 7 samples.

Results

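The mitochondrial replication calls were every row on the mitochondrial chromosome in the deposited call files of a Nanopore study of replicating Drosophila S2 cells. They numbered 592 of 97800 calls: 192 fork tracks among 30854, 195 EdU segments, 195 BrdU segments and 10 origin calls of a BrdU gradient library. No origin and no termination was called on mitochondrial DNA in the 6 pulse libraries. Members were chosen by chromosome name alone, so that direction, strand, length and analogue content played no part in the choice.

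S2 is a cell line from Drosophila melanogaster embryos, and all 7 libraries came from it with no change of genotype given in the labels. In the pulse libraries the cells were grown in 10 µM EdU, then in 10 µM BrdU, and chased for 20 min in 50 µM thymidine, so that a nascent strand carried an EdU segment and then a BrdU segment. The control received no drug and the HU library 1 mM HU together with its BrdU, and both had 7 min of EdU and 15 min of BrdU (1 library each, MinION). The same times, without drug, were used for replicates 1 and 2, and 3 min of EdU with 6 min of BrdU for replicates 3 and 4 (2 libraries each, PromethION). The gradient library received BrdU alone, rising by 0.5 µM at intervals of 2.5 min for 1 hr to reach 12 µM, and then stayed at that level for 30 min (1 library, PromethION). Between replicates 1 and 2 and replicates 3 and 4, labelling scheme cannot be told apart from other differences between these libraries. The control shared the times of replicates 1 and 2 and differed in sequencer. Each library pooled a pair of flasks labelled at the same time, and the labels do not say whether replicates were separate cultures. The cells went through a nuclei preparation buffer before lysis, per the labels' protocols, and what this does to the amount of mitochondrial DNA was not tested.

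Animal mitochondrial DNA is a small circle copied by its own polymerase, helicase and single-strand binding protein, outside the nuclear S phase programme. In Drosophila its copying is known to begin in the A+T-rich control region, a stretch without genes, and to proceed first through the ribosomal RNA genes. The strand whose synthesis starts there is extended continuously, and how and where the opposite strand is started was not examined here. A strand extended continuously carries EdU and then BrdU from 5′ to 3′. On the nuclear lagging strand, the short fragments are joined in fork order and the analogues run the other way.

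The mapped reads reached position 19524 on the reference, taken here as the length of the circle. The RefSeq gene table of the same assembly release, dm6, placed 37 genes on it: 13 protein-coding, 22 tRNA and 2 rRNA genes. Positions are counted from the start of trnI, the isoleucine tRNA gene, at position 1. The small rRNA gene srRNA ended at 14916, and the 4.61 kb from 14917 to 19524, or 23.6% of the circle, held no annotated gene and is called the A+T-rich region here.

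Mitochondrial forks were a small share of the forks of each library. They were 13 of 1853 forks in the control, or 0.702%, with a 95% Wilson interval of 0.410% to 1.20%. In the 7 and 15 min libraries they were 96 of 10390 forks in replicate 1, or 0.924% (0.757% to 1.13%), and 50 of 12814 in replicate 2, or 0.390% (0.296% to 0.514%). In the 3 and 6 min libraries they were 18 of 3035 in replicate 3, or 0.593%, and 13 of 2736 in replicate 4, or 0.475%. The share differed more between the 7 and 15 min replicates, whose intervals do not overlap, than between schemes. It was 0.657% ± 0.377 (SD, n = 2) after long pulses and 0.534% ± 0.0834 (SD, n = 2) after short ones, with an exact two-sided permutation p of 1.00, where 0.333 is the smallest that 2 against 2 libraries allow. Without replicate 1 the difference, short minus long, turned from -0.123 to 0.144 percentage points. Among forks on reads no longer than the circle the mitochondrial share was 12.4% ± 4.71 (SD, n = 2) after long pulses and 2.14% ± 0.147 (SD, n = 2) after short ones (exact two-sided permutation p = 0.333), and short reads held a larger part of the nuclear forks in the short-pulse libraries, with 852 and 562 such forks against 505 and 492. The version of the fork caller differed too. Version 4.0.1, with mitochondrial reads from 15.0 kb up, made 66 of 96 and 37 of 50 mitochondrial forks in replicates 1 and 2. Version 4.0.3, with reads from 10.2 kb up, made all those of replicates 3 and 4. Its part in these shares was not tested. Intervals cover counting error only.

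Each of the 192 forks lay on a read of its own. No mitochondrial read carried more than 1 fork, whereas 1.44% to 5.85% of nuclear reads of like length did in the 5 untreated libraries. Nuclear reads of like length are those on X, 4, 2L, 2R, 3L and 3R with a mapped length no greater than the circle, and they held 2476 forks.

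Tracks of both directions were found. The control held 9 leftward and 4 rightward tracks, where leftward means toward lower coordinates. Replicates 1 and 2 held 38 and 25 leftward against 58 and 25 rightward tracks. Replicates 3 and 4 held 7 and 5 leftward against 11 and 8 rightward tracks. The leftward share was therefore 69.2% in the control, 39.6% and 50.0% after long pulses, and 38.9% and 38.5% after short pulses. The control stood above 50% and the other libraries at or below it, and the 95% Wilson intervals of the control (42.4% to 87.3%) and of the short-pulse libraries (20.3% to 61.4% and 17.7% to 64.5%) overlapped. The mean departure from 50% was -2.77 percentage points ± 13.2 (SD, n = 5), with an exact two-sided sign-flip p of 0.625, where 0.063 is the smallest that 5 libraries allow. It was -8.27 percentage points without the control, and -0.855, -0.681 and -0.574 without replicates 1, 3 and 4 in turn.

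The order of the analogues along the sequenced strand was nearly uniform. On 191 of 192 reads EdU came before BrdU from 5′ to 3′ along the read, that is, a forward read carried a rightward track or a reverse read a leftward one. This held for 13 of 13 tracks in the control, 96 of 96 and 50 of 50 in replicates 1 and 2, 17 of 18 in replicate 3, 13 of 13 in replicate 4 and 2 of 2 with HU. All 108 rightward tracks were on forward reads, and 83 of 84 leftward tracks were on reverse reads. Strand and direction were therefore almost the same variable on this circle.

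Nuclear tracks on reads of like length were mixed. The share with EdU first from 5′ to 3′ was 78.7% in the control, 65.7% and 59.8% in replicates 1 and 2, and 69.4% and 50.4% in replicates 3 and 4. The mitochondrial share was higher in 5 of 5 libraries, by 34.1 percentage points ± 11.4 (SD, n = 5; exact two-sided sign-flip p = 0.063, the smallest 5 libraries allow). This comparison was added after the values had been seen. Against 50%, the mitochondrial share was higher by 48.9 percentage points ± 2.48 (SD, n = 5; exact two-sided sign-flip p = 0.063).

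**Figure D1:**
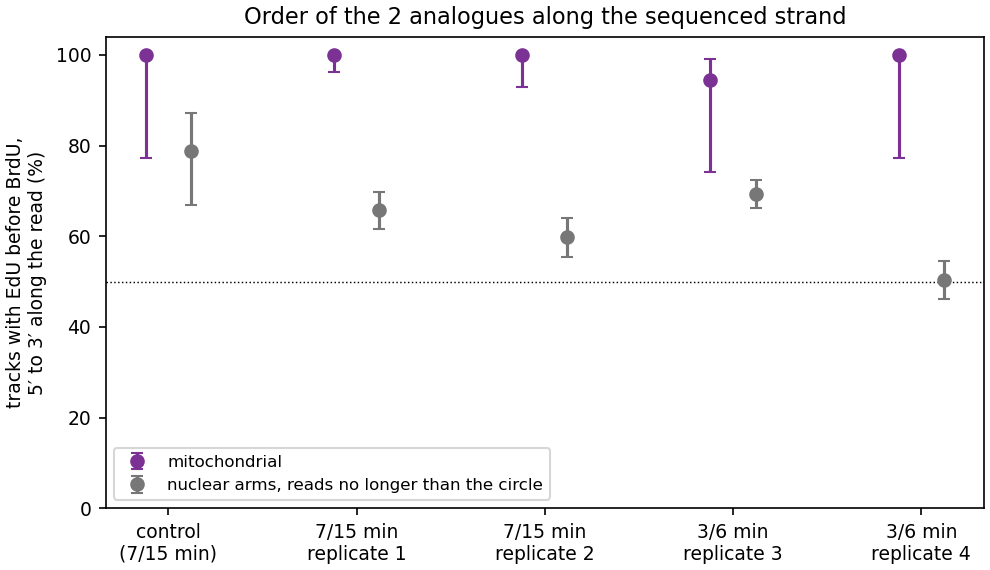
The y axis gives the percentage of tracks in which EdU precedes BrdU from 5′ to 3′ along the read, for the 5 untreated libraries on the x axis. Points are shares and bars are 95% Wilson intervals. The mitochondrial points lie at 100% in 4 libraries and 94.4% in replicate 3, and the nuclear points lie between 50.4% and 78.7%.

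The exception was a track of 3.72 kb in replicate 3, from 3917 to 7632 on a forward read, with an EdU segment of 1.09 kb at its higher end and a BrdU segment of 2.26 kb at its lower end. It ran from ND5, a subunit gene of respiratory complex I, to ATP8, a gene of the ATP synthase. Its read covered positions 8 to 18701, and its track length lay inside the range of the other tracks of that library.

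The BrdU tips of rightward and leftward tracks lay toward opposite ends of the linear reference, while their EdU starts overlapped over much of it. The first EdU of rightward tracks lay between 2897 and 16870, with a median of 9711 and quartiles of 8271 and 12169. Their BrdU tips lay between 8544 and 19519, with a median of 15614, and 61 of 108 tips (56.5%) were in the A+T-rich region. The first EdU of leftward tracks lay between 2912 and 15650, with a median of 7222. Their tips lay between 6 and 10715, with a median of 2443, none of them in the A+T-rich region and 21 of 84 within 1 kb of the start of trnI. A track is written on linear coordinates and none can span the junction of the reference, which bounds the tips at both ends, and how far this shapes the positions was not tested.

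**Figure D2:**
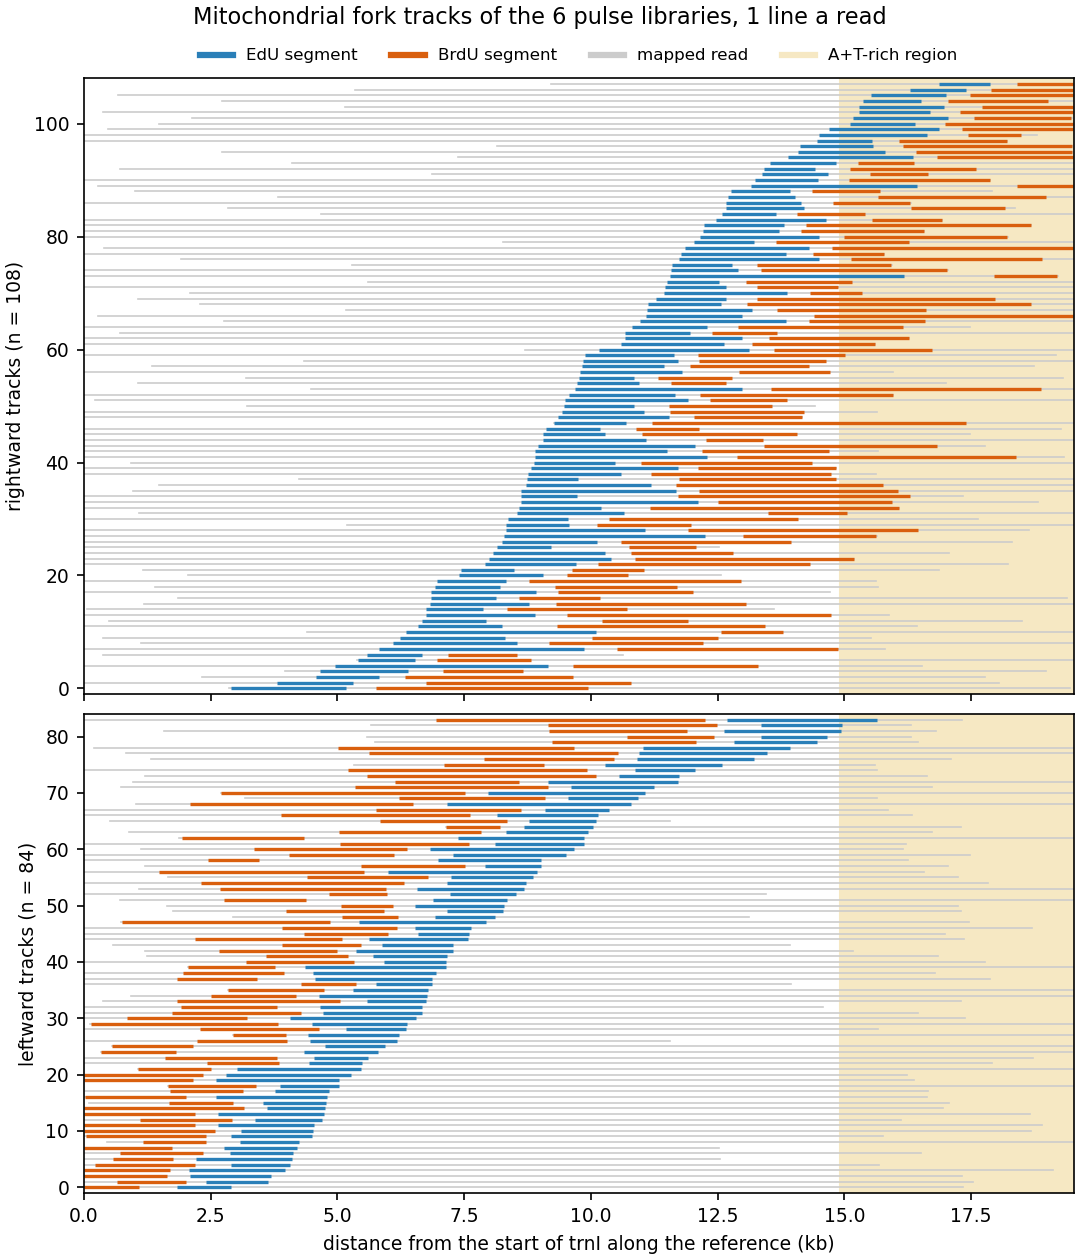
Each horizontal line is the mapped part of a read in grey, with its EdU segment in blue and its BrdU segment in orange, against distance from the start of trnI in kb. Rightward tracks (n = 108) are above and leftward tracks (n = 84) below, both sorted by the first EdU. EdU starts of rightward tracks begin at 2.90 kb, and no leftward EdU start lies beyond 15.7 kb.

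No first EdU lay below 2897 or above 16870 on the reference, and reads covered both ends. Part of this is fixed in advance, since no track can cross the junction and the shortest was 2.59 kb. Rightward starts close to the upper end and leftward starts close to the lower end could therefore not occur. The unlabelled stretches given below are at the opposite ends. Among reads with rightward tracks, 56 covered the centre of the first kb, 72 that of the next and 79 that of the one after. None was labelled with either analogue at these centres. The lowest rightward first EdU, at 2897, lay farther along the third of these bins. On these reads EdU covered 28.7% at 9.5 kb (31 of 108 reads) and BrdU covered 42.2% at 14.5 kb (43 of 102 reads), each being the highest share in bins of 1 kb. Among reads with leftward tracks, EdU was highest at 4.5 kb, with 20 of 78 reads or 25.6%. BrdU on leftward reads was highest at 1.5 kb, with 24 of 66 reads or 36.4%. From 16.5 kb on, none of the 55 leftward reads covering that point or the 16 to 28 covering points farther on was labelled. Only reads with calls were deposited in these files, so that these shares say nothing of unlabelled mitochondrial DNA.

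Measured from the A+T-rich region along the direction of synthesis, the median rightward track began 9.71 kb past the start of trnI and the median leftward track 7.69 kb past the end of srRNA. Inside the region itself, which is 23.6% of the circle, 8 of 108 rightward and 3 of 84 leftward tracks had their first EdU. Rightward tracks could not begin close to its upper end, as none can cross the junction. Leftward reads covering it fell from 75 at 14.5 kb to 28 at 17.5 kb and 16 at 19.5 kb. The counts are not adjusted for either limit.

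By gene, the midpoints of leftward and rightward tracks divided the circle. COX1, a core subunit gene of cytochrome c oxidase, held 17 leftward and 0 rightward midpoints. COX2, of the same complex, held 8 and 0, and ATP6, of the ATP synthase, held 11 and 0. ND5 held 14 leftward and 6 rightward midpoints, and ND4, another complex I gene, held 7 and 10. These complex I genes, in the middle of the map, held at least 6 midpoints of either direction. CYTB, the cytochrome b gene of complex III, held 2 leftward and 12 rightward midpoints, and ND1, of complex I, held 3 and 19. The large rRNA gene lrRNA held 0 and 16, srRNA 0 and 9, and the A+T-rich region 0 and 27. Per length, fork midpoints numbered 23.4 per kb in ND1, 11.1 to 16.3 per kb in the other 8 named genes and 5.86 per kb in the A+T-rich region. These densities are not adjusted for coverage, which was 107 rightward and 83 leftward reads at 11.5 kb and 43 and 16 at 19.5 kb. With a shortest track of 2.59 kb, midpoints close to the reference ends could not occur, which lowers the value for the A+T-rich region. COX3 and ND6 tied for the tenth place at 7 calls each.

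The mapped length of the reads ran from 10.2 kb to 19.5 kb, which is 99.9% of the circle, with medians of 17.5 kb for control reads, 16.5 and 17.3 kb after long pulses and 13.9 and 15.4 kb after short pulses. Medians of the nuclear reads of like length were 17.8, 16.7, 17.2, 14.4 and 14.3 kb in the same order. The shortest control reads were 15.0 kb on the circle and 15.3 kb on nuclear DNA, so that read lengths are not alike between libraries. The difference was 0.0600 kb ± 0.631 (SD, n = 5; exact two-sided sign-flip p = 0.938), so that the comparisons below set reads of like length side by side.

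Many mapped reads stopped at the ends of the linear reference. Of 192 reads, 88 began within 10 bp of its start, 58 ended within 10 bp of its end and 145 (75.5%) did at least one of these. Of all 192 reads, the higher end of 117 lay inside the A+T-rich region short of the reference end, and that of 17 lay below the region. Among the 88 reads that began at the start of the reference, the median higher end was 16720, with quartiles of 15795 and 17888. Of 109 forward reads 47 had their 5′ end at the reference start, and of 83 reverse reads 16 had it at the reference end while 58 had it inside the A+T-rich region. What lies in the unmapped part of such reads was not analysed here.

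Mitochondrial tracks were shorter than nuclear tracks on reads of like length. The median was 4.46 kb in the control, and replicates 1 to 4 had medians of 5.39, 5.17, 3.70 and 3.35 kb. The nuclear medians were 7.62, 8.90, 9.42, 7.91 and 8.20 kb in the same order. Every mitochondrial median was below its nuclear partner, and the upper mitochondrial quartile lay below the lower nuclear one in each library, most narrowly in replicate 1 (6.40 against 6.77 kb).

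The difference was -3.99 kb ± 0.666 (SD, n = 5), lower in 5 of 5 libraries, with an exact two-sided sign-flip p of 0.063, the smallest 5 libraries allow. As a ratio, mitochondrial medians were 0.523 ± 0.0831 (SD, n = 5) of the nuclear ones. Kept to tracks ending at least 1 kb inside the read at both ends, the difference was -2.23 kb ± 0.540 (SD, n = 5), and against all nuclear forks, whose reads are longer, it was -7.50 kb ± 2.27 (SD, n = 5).

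Both analogues contributed. The EdU segment had a control median of 1.61 kb, and its medians in replicates 1 to 4 were 1.70, 1.96, 1.23 and 1.29 kb. It was shorter than the nuclear one by a difference of -1.69 kb ± 0.138 (SD, n = 5; lower in 5 of 5 libraries; exact two-sided sign-flip p = 0.063, 0.125 after adjustment over 10 such differences). The BrdU segment had medians of 1.97, 2.65, 2.40, 1.67 and 1.36 kb in the same order, with a difference of -1.40 kb ± 0.512 (SD, n = 5; lower in 5 of 5 libraries; same exact p-values). Between the segments lay a gap of 0.440 to 0.583 kb in median, against 1.05 to 1.47 kb in nuclear tracks, a difference of -0.709 kb ± 0.180 (SD, n = 5; lower in 5 of 5 libraries). The whole mitochondrial track was thus more compact in each of its 3 pieces.

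**Figure D3:**
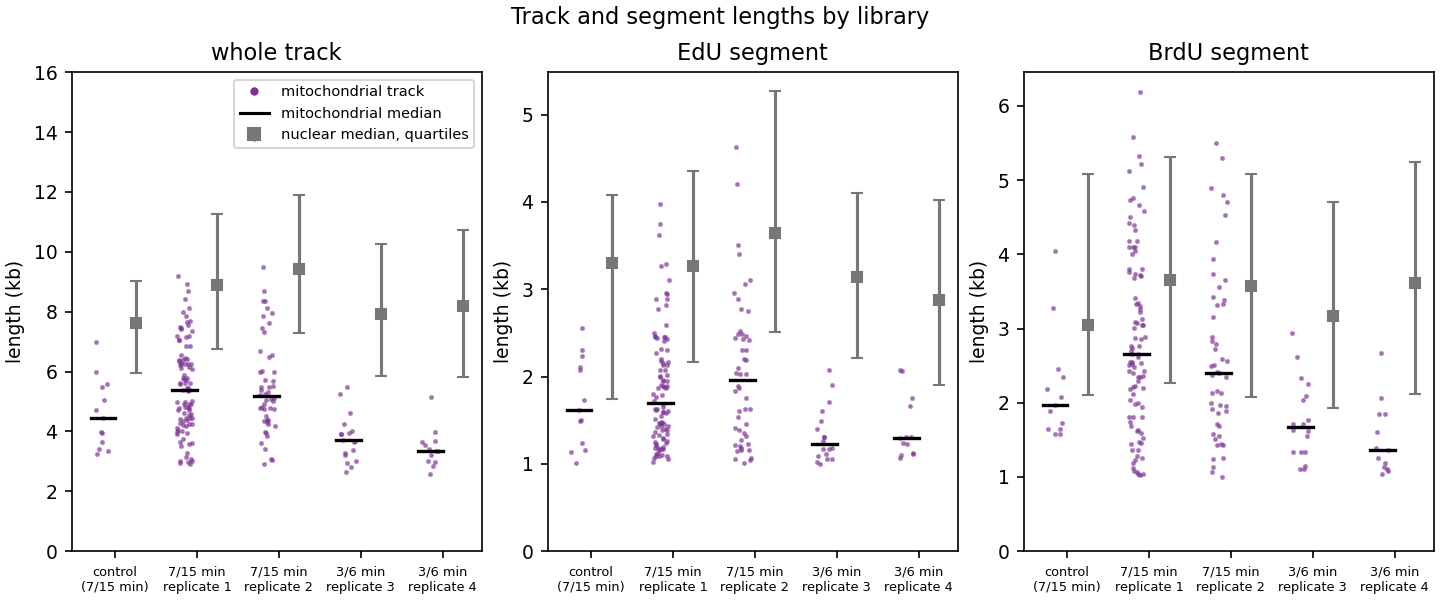
Length in kb of the whole track, the EdU segment and the BrdU segment for the 5 untreated libraries. Purple points are single mitochondrial tracks with their median as a black line, and grey squares are medians of nuclear tracks on reads no longer than the circle, with bars from the lower to the upper quartile. In every panel and library the black line lies below the grey square, and no mitochondrial segment is under 1 kb.

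The shortest mitochondrial segments were 1.00 kb for either analogue (1001 bp of EdU and 1000 bp of BrdU), and many lay close to that. Nuclear segments on reads of like length went lower, to 0.572 kb of EdU and 0.502 kb of BrdU. Segments of EdU under 1.5 kb made up 46.2% of tracks in the control, 38.5% and 34.0% in replicates 1 and 2, and 77.8% and 69.2% in replicates 3 and 4. The nuclear shares were 7.32% to 21.3%. BrdU segments under 1.5 kb were 0% in the control, 15.6% and 16.0% in replicates 1 and 2, and 33.3% and 61.5% in replicates 3 and 4. The nuclear shares were 14.8%, 9.31%, 14.6%, 15.3% and 14.2%, so that the control was lower and the difference of 11.7 percentage points ± 23.2 (SD, n = 5; exact two-sided sign-flip p = 0.313) was within the spread between libraries. Segments that short in the short-pulse libraries sit against the lowest value seen on the circle, so their medians may be held up by it, which was not tested.

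Both long-pulse medians of the replicates lay above both short-pulse medians on the circle. The control, which had the long-pulse times, had a median of 4.46 kb, below both long-pulse medians and above both short-pulse ones. It did not enter the means that follow. The mean of medians was 5.28 kb ± 0.158 (SD, n = 2) for 7 and 15 min and 3.52 kb ± 0.248 (SD, n = 2) after 3 and 6 min, a difference of -1.76 kb for short minus long that exceeded the spread within either scheme (exact two-sided permutation p = 0.333, the smallest 2 against 2 libraries allow). Short over long was 0.667 for the whole track, 0.689 for EdU and 0.599 for BrdU, where the labelling times stand at 0.409. In nuclear tracks on reads of like length the same ratios were 0.879, 0.871 and 0.937. Over all nuclear reads, which are not capped at the length of the circle, they were 0.604, 0.597 and 0.582. The mitochondrial ratios lay below the nuclear ones on reads of like length and above them over all reads, and these differences were not tested.

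Divided by labelling time, the mitochondrial track length came to 0.240 kb per min ± 0.00720 (SD, n = 2) in the long-pulse libraries and 0.392 kb per min ± 0.0275 (SD, n = 2) in the short-pulse ones. The nuclear values on reads of like length were 0.416 kb per min ± 0.0166 (SD, n = 2) and 0.895 kb per min ± 0.0227 (SD, n = 2). The control, with the same times as replicates 1 and 2, was lower, at 0.203 kb per min on the circle and 0.346 kb per min on nuclear DNA. Length per minute was higher in the short-pulse libraries in both genomes. These values are not fork speeds, since read ends cut some tracks and no mitochondrial segment was under 1 kb. Over all nuclear reads the mean of median tracks was 14.3 kb after long pulses and 8.62 kb after short ones. On nuclear reads of like length it was 9.16 and 8.05 kb. In replicates 1 and 2 a median track spanned 27.6% and 26.5% of the circle, in the control 22.9%, and in the short-pulse libraries 18.9% and 17.2%.

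The longest track was 9.50 kb, or 48.7% of the circle, in replicate 2, running rightward from 8890 in ND4 to 18392 in the A+T-rich region. The longest leftward track, 8.91 kb in replicate 1, ran from 13920 in lrRNA down to 5009 in COX3, a further cytochrome c oxidase gene. The shortest leftward track, 2.59 kb in replicate 4, ran from 6873 to 4282, and the shortest rightward track, 2.65 kb in replicate 3, from 16870 to 19519 inside the A+T-rich region, its tip 5 bp short of the reference end. Leftward and rightward tracks did not differ in length beyond the spread between libraries, at -0.178 kb ± 0.490 (SD, n = 5; lower in 3 of 5 libraries; exact two-sided sign-flip p = 0.375, 0.525 after adjustment over 7 measures). None of the 7 measures compared between directions had an adjusted p under 0.438.

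The balance between the segments leaned more to BrdU on mitochondrial than on nuclear DNA in 4 of 5 libraries. The median log2 ratio of BrdU to EdU length was 0.40 in the control, 0.56 and 0.38 in replicates 1 and 2, and 0.33 and 0.14 in replicates 3 and 4. On nuclear reads of like length it was 0.22, 0.16, -0.10, -0.05 and 0.28. The difference was 0.26 ± 0.25 (SD, n = 5), higher in 4 of 5 libraries and lower in replicate 4 (exact two-sided sign-flip p = 0.125). Among tracks ending at least 1 kb inside the read it was 0.60 ± 0.30 (SD, n = 5), higher in 5 of 5 libraries. BrdU was given for longer than EdU in both schemes.

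The read on the EdU side of a mitochondrial track was long. Its control median was 10.8 kb, and replicates 1 to 4 had 8.93, 8.96, 7.15 and 7.07 kb. On nuclear reads of like length it was 3.86, 2.85, 3.29, 4.08 and 1.39 kb. The difference was 5.50 kb ± 1.46 (SD, n = 5), higher in 5 of 5 libraries (exact two-sided sign-flip p = 0.063), a comparison added after the values had been seen. Against nuclear forks on reads of any length it turned to -11.8 kb ± 4.84 (SD, n = 5), lower in 5 of 5 libraries. Because all but 1 track run 5′ to 3′, this stretch is the 5′ part of the sequenced strand, and 188 of 192 tracks had at least 1 kb of it.

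**Figure D4:**
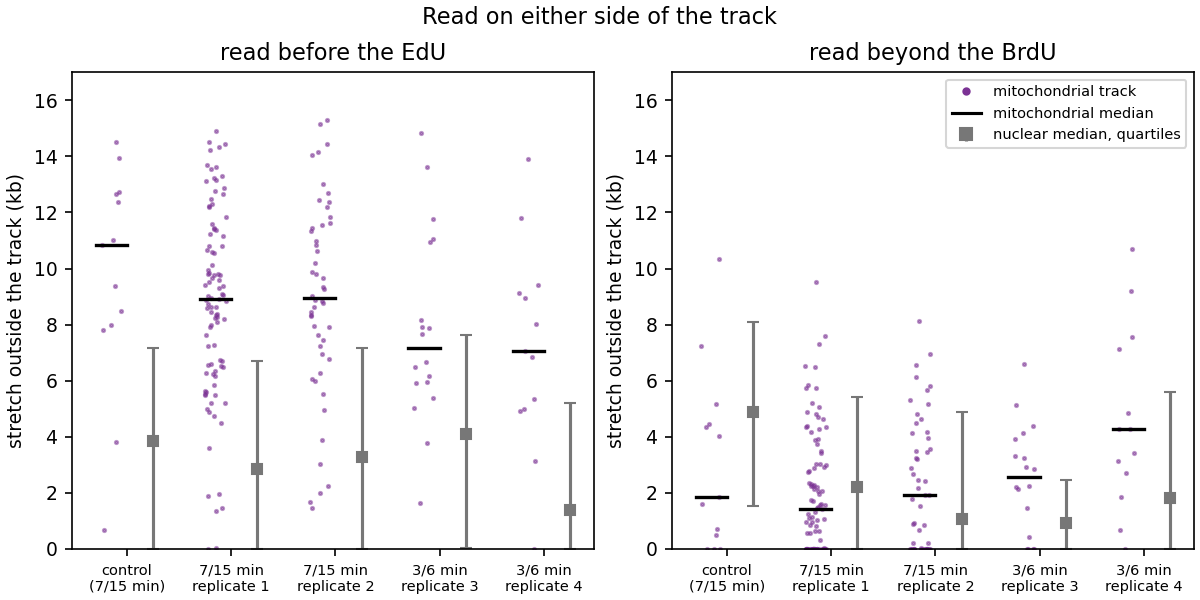
The y axis gives the kb of mapped read on the EdU side of the track (left) and beyond the BrdU tip (right) for the 5 untreated libraries. Purple points are mitochondrial tracks with their median as a black line, and grey squares are nuclear medians on reads no longer than the circle with quartile bars. The black line lies above the grey square in every library on the left, and above it in 3 of 5 libraries on the right.

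Tracks whose EdU reached the read end were rare on the circle. The EdU lay within 100 bp of the read end in 0 of 13 control tracks, 2 of 96 and 0 of 50 in replicates 1 and 2, and 0 of 18 and 1 of 13 in replicates 3 and 4. In nuclear reads of like length the share was 37.7%, 36.6%, 35.0%, 27.2% and 41.5%. The difference was -33.6 percentage points ± 3.88 (SD, n = 5; lower in 5 of 5 libraries; exact two-sided sign-flip p = 0.063, 0.125 after adjustment over 10 differences). The BrdU end behaved otherwise: it lay within 100 bp of the read end in 23.1%, 33.3%, 32.0%, 22.2% and 7.69% of mitochondrial tracks and 18.0%, 32.7%, 41.1%, 33.2% and 33.6% of nuclear ones. Beyond the BrdU the read went on for medians of 1.44 to 4.26 kb, which did not differ from the nuclear stretch beyond the spread (0.218 kb ± 2.19, SD, n = 5; exact two-sided sign-flip p = 0.813). Of the mitochondrial tips that reached the reference itself, 10 rightward ones lay within 10 bp of its end and 10 leftward ones within 10 bp of its start.

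The files give 4 fractions per fork, between 0 and 1, which they do not name. Over the nuclear forks the first fraction was exactly 0 in 27.6% of forks in the lowest quartile of EdU length and 3.49% in the highest, a steeper fall than across BrdU quartiles (19.2% to 8.20%), and the third fell more steeply with BrdU length (12.7% to 1.87%) than with EdU length (9.65% to 3.37%). The first pair is therefore read here as the EdU segment and the second pair as the BrdU segment, with the larger of each pair as the analogue given.

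The fractions were lower on mitochondrial tracks. The second, in the EdU segment, had medians of 0.817 in the control, 0.841 and 0.829 in replicates 1 and 2, and 0.777 and 0.804 in replicates 3 and 4, against nuclear medians of 0.887, 0.902, 0.911, 0.893 and 0.898. The difference was -0.0846 ± 0.0214 (SD, n = 5), lower in 5 of 5 libraries (exact two-sided sign-flip p = 0.063, and 0.063 after adjustment over the 4 fractions). The fourth, in the BrdU segment, had medians of 0.758, 0.763, 0.789, 0.740 and 0.801 against 0.775, 0.817, 0.825, 0.854 and 0.877. Its difference of -0.0593 ± 0.0372 (SD, n = 5) was also lower in 5 of 5 libraries (same exact p-values), but among tracks ending at least 1 kb inside the read it was -0.0154 ± 0.0400 (SD, n = 5; higher in 3 of 5 libraries; exact two-sided sign-flip p = 0.500). Replicates 1 and 2 mixed caller versions. In replicate 1 the fourth fraction of mitochondrial tracks tended to be higher under version 4.0.3 than under version 4.0.1. The part of version in the fractions was not tested.

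The small fractions lay near 0 in both genomes. The first had mitochondrial medians of 0 to 0.00799 and was lower than the nuclear one by a difference of -0.0102 ± 0.00370 (SD, n = 5; exact two-sided sign-flip p = 0.063). The third had a difference of -0.0248 ± 0.00450 (SD, n = 5; same exact p), both in 5 of 5 libraries. Against all nuclear forks these differences were -0.00531 and -0.0122. Mitochondrial segments were shorter, as given above, and the part of length in these fractions was not tested.

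**Figure D5:**
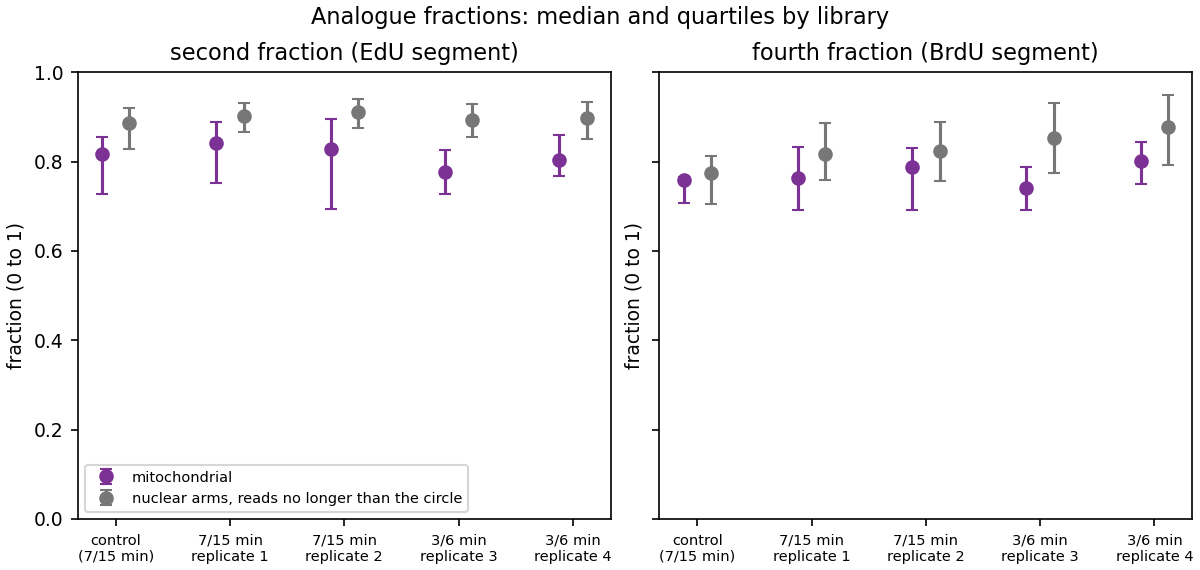
The y axis gives the second and the fourth deposited fraction (0 to 1) for the 5 untreated libraries. Points are medians over tracks and bars run from the lower to the upper quartile, for mitochondrial tracks in purple and nuclear tracks on reads no longer than the circle in grey. Every purple point lies below its grey partner, by more in the second fraction than in the fourth.

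HU, which stands for hydroxyurea in common use, an inhibitor of ribonucleotide reductase, was given in a library with 26 forks, of which 2 were mitochondrial, or 7.69% (95% Wilson interval 2.14% to 24.1%). The first ran rightward over 9.05 kb, from 5816 in ND3, a complex I gene, to 14865 in srRNA, with 4.04 kb of EdU and 4.35 kb of BrdU on a forward read of 15.8 kb. The second ran rightward over 6.06 kb, from 12157 in ND1 to 18214 in the A+T-rich region, with 2.35 kb of EdU and 3.22 kb of BrdU on a forward read of 18.2 kb, and its tip lay 9 bp from the read end. Control tracks, with the same labelling times and sequencer, ran from 3.25 to 6.99 kb, so that 1 of the 2 HU tracks was longer than all 13 of them and the other lay among them. With 1 library a condition and 2 tracks there is no test.

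No origin or termination was called on the circle. A count of 0 beside 192 forks allows up to 1.56 per 100 forks, for counting error only. Nuclear reads of like length gave 45 origins, or 1.82 per 100 forks (95% Wilson interval 1.36 to 2.42), and 42 terminations, or 1.70 per 100 forks (1.26 to 2.28). The limit lies inside both intervals. These rates are pooled over libraries, and the short-pulse libraries gave 37 of the 45 origins. With the nuclear rate of each library applied to its own mitochondrial forks, 2.25 origins and 2.25 terminations would stand beside the 192 forks. Taken 1 kind of call at a time, a lower rate on mitochondrial DNA was not detectable at this depth. Both counts of 0 go with the lack of any mitochondrial read with more than 1 fork, given above, and are not separate results. The 2 kinds were not tested together.

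Segments without a fork call were few. In replicate 2, 3 of 53 reads with both analogues (5.66%) had no fork row, against 8.58% of nuclear reads there, and in the other libraries every mitochondrial read with both segments had its fork. All 3 also carried EdU before BrdU from 5′ to 3′, on 2 forward reads and 1 reverse read, with EdU of 1.08 to 2.46 kb and BrdU of 1.29 to 6.52 kb.

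The caller's stall score, between 0 and 1, was given to 22 of the 192 forks, and the other 170 carried the code -3 in its place. Scored forks were 18 rightward and 4 leftward, and 18 of the 22 scored at least 0.5, with a median of 0.876 and a range of 0.00269 to 0.995. In the 5 untreated libraries pooled, 37 of 145 scored forks reached 0.5 on nuclear reads of like length. Over all nuclear reads 2882 of 12927 did. These counts were not compared by a test. Scored tracks had a median of 6.55 kb of read beyond the BrdU and unscored ones 1.46 kb. By library 1 of 13 forks was scored in the control, 8 of 96 and 8 of 50 in replicates 1 and 2, and 2 of 18 and 3 of 13 in replicates 3 and 4. On nuclear reads of like length the scored share was 21.3% in the control, 10.5% and 11.2% in replicates 1 and 2, and 1.06% and 2.67% in replicates 3 and 4. The mitochondrial share was lower in 2 libraries and higher in 3, by 3.90 percentage points ± 12.8 in the mean (SD, n = 5; exact two-sided sign-flip p = 0.563, 0.703 after adjustment over 10 differences).

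The gradient library, in which rising BrdU marks where a strand was begun, gave 10 mitochondrial origin calls among 1529, or 0.654% (95% Wilson interval 0.356% to 1.20%). They lay on 8 reads, with 3 calls on a single read and 1 on each of the others. Their width ran from 1 bp to 9.78 kb, with a median of 1.19 kb, and 2 of them were 1 bp wide. The median on the arms was 2.19 kb, where read length was not limited to that of the circle, so the 2 sets are not alike.

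Of these 10 calls, 4 had their midpoint in ND1, and 1 each in lrRNA, ND6, ND5, trnK and trnC, the last 2 being tRNA genes. The 4 in ND1 were on 4 different reads: 7099 to 16876, 10573 to 14286, 11889 to 13230 and 11975 to 13013. The narrowest, at 10326 in ND6 and 3802 in trnK, span a single base. A single call, from 17308 to 17939 and 0.632 kb wide, lay wholly in the A+T-rich region. The read with 3 calls carried those in trnC, trnK and ND5. Read coordinates and strands are not used here for this library, so that the coverage behind these positions is unknown.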

How the data were processed

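Read alignments to dm6 used minimap2 2.24 and SAMtools 1.10, per the submitters' processing notes. Per the file headers, the authors called EdU and BrdU segments, forks, origins and terminations with DNAscent forkSense, in version 4.0.1 or version 4.0.3. The deposited fork files hold coordinates and lengths in bp (other values), 4 fractions per fork and a stall score, all made by the authors. In the control and HU libraries all mitochondrial forks came from version 4.0.1, in replicates 3 and 4 all from 4.0.3, and in replicates 1 and 2 version 4.0.3 made 30 of 96 and 13 of 50.

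From these, EdU and BrdU positions were placed within each track and matched the deposited segments for 192 of 192 forks. Medians per library were compared between mitochondrial and nuclear forks by exact two-sided sign-flip tests over 5 untreated libraries, and between schemes by exact two-sided permutation. Shares carry 95% Wilson intervals, and a count of 0 a limit of 3 counts. P-values measure the spread between these libraries, which may be technical. Depth is given as forks per library. Members, gene names and comparisons were chosen with earlier results of these data known. Named genes are those holding the most midpoints of forks and gradient origins, plus the A+T-rich region. Single tracks are described where a library held at most 10, otherwise the longest and shortest of each direction; the exceptional track was chosen after its values were seen. Mapped reads with forks, on the arms and the circle, began at 10.0 to 10.1 kb in replicates 1 to 4. They began at 15.0 kb in the control and at 15.7 kb with HU. The shortest mitochondrial read was 15.0 kb under version 4.0.1 and 10.2 kb under version 4.0.3. No sequence is printed, as no genome was used here. Tools were scipy 1.17.1, pandas 2.3.3, numpy 2.4.6 and matplotlib 3.10.9 under Python 3.11.15.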

Additional observations from a re-analysis of the deposited data

Results flagged for a closer look

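The leftward share of mitochondrial forks departed from 50% in opposite directions in the control, by 19.2 percentage points upward, and in the 3 and 6 min libraries, by -11.3 percentage points in the mean of 2, a difference of 30.6 percentage points. Every library of either group lay on its side of 50%. The difference was not tested, and it rests on 13 forks in the control and 18 and 13 in the short-pulse libraries.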

How the results depend on the processing

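Over 12 results and 103 alternatives, 101 kept the direction and the side of the 0.05 threshold, which no test here could pass. The direction turned in 2. The mitochondrial share of forks, short minus long pulses, went from -0.123 to 0.144 percentage points without the 7 and 15 min replicate 1, and ranged from -0.390 to 0.144 over the libraries left out. The stretch of read before the EdU, mitochondrial minus nuclear, became -11.8 kb against nuclear forks on reads of any length, which are longer by construction. Leaving out each library in turn, the mitochondrial minus nuclear track length stayed between -4.20 and -3.78 kb and the share of tracks running 5′ to 3′ along the read between 30.2 and 37.3 percentage points higher. With version 4.0.3 alone, over 4 libraries, the track length difference was -5.10 kb and the share 43.3 percentage points higher. No alternative by version was run for the fractions. The leftward departure from 50% ranged from -8.27 without the control to -0.574 percentage points. Version 4.0.3 alone gave -9.96 percentage points, and pooling forks over libraries -5.79. The first and the third fraction differed by -0.00531 and -0.0122, and the fourth by -0.0387, when all nuclear forks entered. The alternative with reads of 10 kb or more left every value as it was, since all forks were on such reads. Alternatives for the read order, the stretch before the EdU and the scheme difference in track length, and 2 for track length, were chosen after seeing the data. No paired analysis was possible because the long-pulse and short-pulse replicates carry different numbers; this concerns the comparison of schemes, and mitochondrial and nuclear values were paired within libraries. With 13 to 96 forks a library, depth limits each share.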
